A study of Mus musculus with 4 samples.

Results

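The 8 endocannabinoid system genes described here were taken by name from the 31053 gene symbols of the deposited count matrix, and all 8 were found. They are Cnr1 (the CB1 receptor), Dagla and Daglb (the diacylglycerol lipases), Mgll, Abhd6 and Abhd12 (hydrolases of 2-AG), Napepld (NAPE-PLD) and Faah (fatty acid amide hydrolase). Nuclei came from the mediobasal hypothalamus, the base of the hypothalamus that holds the arcuate and ventromedial nuclei. All mice were wild type, ate chow ad libitum and received Saline or Insulin, with 2 libraries per treatment. The labels give no strain, age, sex, dose, route, time after treatment or number of mice per library. Nuclei were sorted and profiled by droplet-based sequencing of the 3′ ends of polyadenylated RNA.

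Endocannabinoids are lipid messengers that neurons make on demand from membrane phospholipids. They commonly travel backwards across a synapse, where the presynaptic cannabinoid receptor CB1 lowers transmitter release. 2-arachidonoylglycerol (2-AG) is made by the diacylglycerol lipases and broken down by monoacylglycerol lipase and the ABHD hydrolases, whereas anandamide is released by NAPE-PLD, among other routes, and broken down by fatty acid amide hydrolase. In the hypothalamus this system is known for its part in feeding and body weight.

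In all, 36523 annotated nuclei were analysed, with 63590421 to 71391593 unique molecular identifiers (UMIs, the counted RNA molecules) per library. The deposited nucleus table places 1 Saline and 1 Insulin library in each of 2 sequencing runs, here run A and run B. Run and sex coincided: Xist, the RNA of the inactive X chromosome, was at 4.53 and 4.88 CPM in the run A libraries and at 1614 and 1713 CPM in those of run B, so run and sex cannot be told apart. CPM (counts per 1e6) scales the UMIs of a gene to the total UMIs of the same nuclei and library. Barcode sequences shared by 2 or more libraries numbered 318. By their Xist levels, the 2 libraries of each treatment came from mice of different sex. Their spread thus includes the difference between runs and sexes, and may in part be technical. No label gives the number of mice per library, so the p-values reflect no more than the variation among these 4 libraries. In summed nuclei, fewer expressing nuclei and less RNA per nucleus cannot be told apart.

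The authors' cell type names were checked against marker genes. Nuclei annotated Endothelial went against their name: their summed level of 4 endothelial markers was 285 CPM, against 3365 CPM in nuclei annotated Mural Cell. Nuclei annotated Mural Cell also held 1610 CPM of 4 mural markers, so this class carried markers of both vessel cell types. Nuclei annotated Endothelial held 2854 CPM of 5 ependymal and tanycyte markers, against 3536 CPM in nuclei annotated Ependymo. Both classes are therefore called by their annotation only. The 4 neuron markers Rbfox3, Snap25, Syt1 and Stmn2 were present in every non-neuronal class. In nuclei annotated Micro, Syt1 stood at 43.1% and Snap25 at 50.8% of the level in neurons, so values for the nuclei without a UMI of these 4 markers are given beside many of the results on non-neuronal classes.

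In the GRCm38 assembly, Cnr1 (ENSMUSG00000044288) lies on chromosome 4, 33924593 to 33948831, plus strand, and Faah (ENSMUSG00000034171) on the same chromosome, 115967145 to 116017926, minus strand. Dagla (ENSMUSG00000035735) lies on chromosome 19, 10245265 to 10304877, minus strand. Daglb (ENSMUSG00000039206) lies on chromosome 5, 143464584 to 143505942, plus strand. Napepld (ENSMUSG00000044968) lies on the same chromosome, 21662901 to 21701396, minus strand. Mgll (ENSMUSG00000033174) spans chromosome 6, 88724412 to 88828360, plus strand, and overlaps 3 predicted genes on its own strand, with which its reads could be confused. Abhd6 (ENSMUSG00000025277) lies on chromosome 14, 8002902 to 8056763, plus strand, and Abhd12 (ENSMUSG00000032046) on chromosome 2, 150832493 to 150904741, minus strand. Levels below are compared between cells for 1 gene at a time and never between genes, because CPM is not corrected for differences between transcripts.

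The first comparison asked in which cell types each gene was most abundant. Among all nuclei of each class, neurons led for the receptor, microglia-annotated nuclei for both diacylglycerol lipases and for Abhd12, and OPC and astrocytes for Mgll. Oligodendrocytes led for Napepld and nuclei annotated Ependymo for Faah. The lead of Ependymo for Faah was not kept among nuclei without a neuron marker UMI. Each type was tested against the mean of the other 7 with edgeR's quasi-likelihood test and the library as a block, with p-values adjusted over 14597 genes. A difference below is on the log2 scale, with its standard error (SE), and is called at an adjusted p under 0.05. Of 64 tests of the 8 genes, 40 were called, 19 of them higher and 21 lower. Over all genes and types, 46.4% of tests were called in either direction, 25.2% higher and 21.3% lower, so calls of a type were common among all genes.

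**Figure D1:**
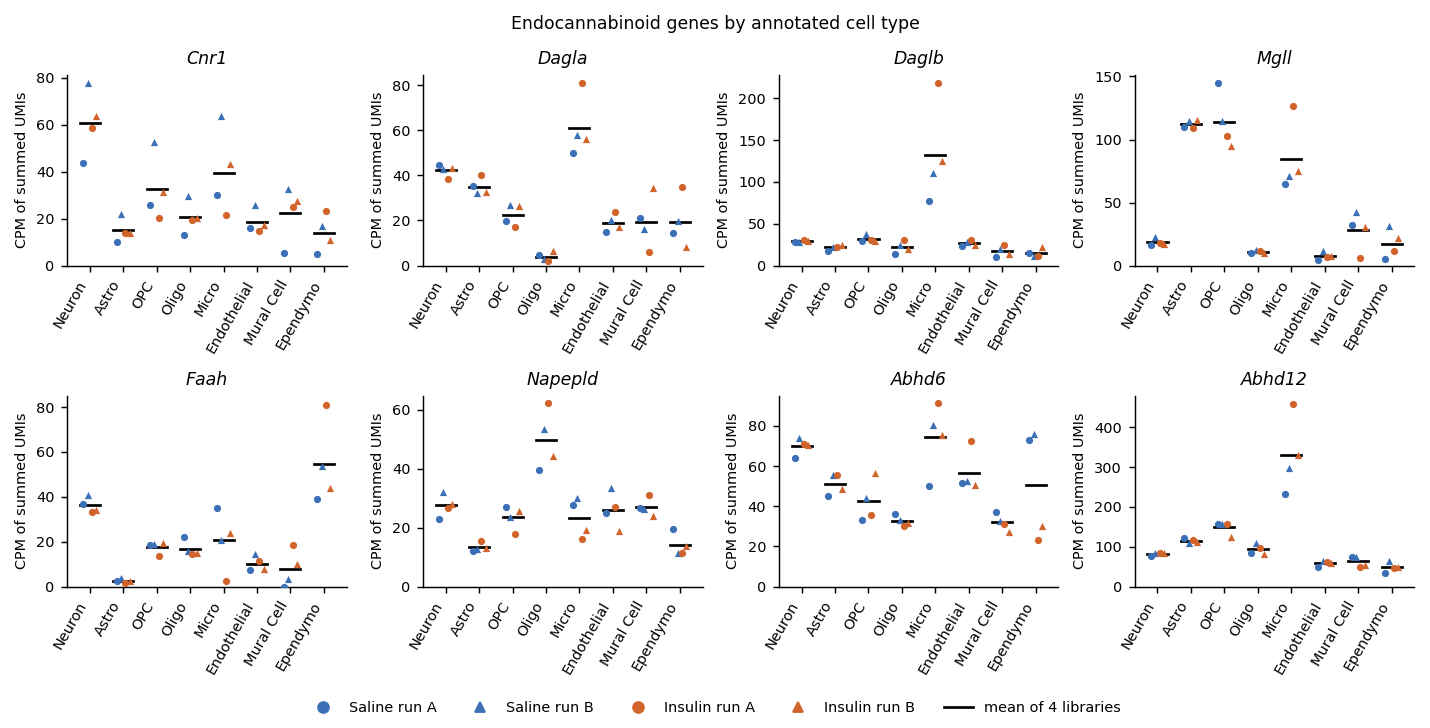
Levels of the 8 genes in the 8 annotated cell types. The vertical axis is CPM of summed UMIs, each point is 1 of the 4 libraries (blue Saline, orange Insulin, circles run A, triangles run B) and the bar is their mean; Abhd12 and Daglb stand highest in nuclei annotated Micro, at means of 329 and 133 CPM.

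The receptor gene Cnr1 was at 43.7 and 77.7 CPM in neurons of the Saline libraries of run A and run B and at 58.6 and 63.6 CPM in those of the Insulin libraries. The Saline libraries thus lay on either side of both Insulin libraries. Its neuronal mean of 60.9 ± 14.1 CPM (SD, n = 4) was 1.58 log2 units above the other types (SE 0.08, adjusted p = 1.65e-18 by edgeR). Neurons made up 63.7% of nuclei and 82.4% of UMIs, and held 91.3% of all Cnr1 UMIs. Next in order came nuclei annotated Micro at 39.6 ± 18.3 CPM and OPC, the oligodendrocyte precursors, at 32.5 ± 14.1 CPM. The lowest were astrocytes, at 9.99 to 22.1 CPM, and nuclei annotated Ependymo at 14.0 ± 7.84 CPM. The ranges of the libraries overlapped between all 7 pairs of neighbours in this order.

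Cnr1 was also called higher in nuclei annotated Micro (log2 difference 0.73) and in OPC (0.63), the 2 glial types with the most neuron marker UMIs (1419 and 859 CPM summed, against 237 to 640 CPM in the other 5 non-neuronal types and 3021 CPM in neurons). In nuclei without such a UMI it was not called in Micro (-0.18 ± 0.48, log2 difference ± SE) or in OPC (0.46 ± 0.43). These values rest on 11 Cnr1 UMIs in 192 Micro nuclei and 16 in 131 OPC nuclei. With so few UMIs, a lost call does not show that the level fell. The neuronal difference was 1.83 in that comparison, which held the same neurons but left Ependymo out of the other types. Thinned to 1000 UMIs per nucleus, 5.32% of neurons held a Cnr1 UMI, against 2.10% of oligodendrocytes and 1.55% of astrocytes. Unthinned, these shares were 31.8%, 4.78% and 4.96%, at median depths of 8445, 2354 and 3148 UMIs. Thinning left out 42 neurons, 40 oligodendrocytes and 25 astrocytes. Free RNA or attached neuronal material could give such shares in glia, and its part was not tested.

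Dagla, the diacylglycerol lipase known as the main source of 2-AG at adult synapses, was lowest in oligodendrocytes. There it was at 4.54 and 2.89 CPM in the Saline libraries and 1.90 and 6.60 CPM in the Insulin libraries, 2.64 log2 units below the other types (log2 difference -2.64, SE 0.24). Neurons held 42.4 ± 2.66 CPM and astrocytes 32.0 to 40.1 CPM, called higher by 1.20 and 0.96. Nuclei annotated Micro held the highest mean, 61.2 ± 13.5 CPM, and their 4 libraries lay above all 4 neuron libraries. In the nuclei of this class without a neuron marker UMI, Dagla was at 39.2 and 48.7 CPM in the Saline and 105 and 34.1 CPM in the Insulin libraries, from 28 UMIs, a range that overlapped that of neurons (log2 difference 1.51, adjusted p = 0.00144 by edgeR). The differences among such nuclei were 1.06 in astrocytes and -2.61 in oligodendrocytes. Astrocytes lay likewise above OPC, the next in order, and nuclei annotated Endothelial above oligodendrocytes.

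Daglb, the second diacylglycerol lipase, stood apart in nuclei annotated Micro. It was at 77.6 and 110 CPM in the Saline libraries and at 218 and 125 CPM in the Insulin libraries, while the means of the other 7 types lay between 14.9 and 31.8 CPM. The difference was 2.36 log2 units (SE 0.15). In the nuclei of this class without a neuron marker UMI, the level was 196 and 170 CPM in Saline and 198 and 230 CPM in Insulin libraries, and the difference was 2.69. Thinned to 1000 UMIs, 17.6% of nuclei annotated Micro held a Daglb UMI, against 2.99% of neurons. Unthinned, these shares were 39.6% and 23.0%, at median depths of 2326.5 and 8445 UMIs.

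Mgll, the monoacylglycerol lipase that removes most 2-AG in brain, was more abundant in OPC and astrocytes than in neurons. Of its UMIs 55.8% lay in neurons, the lowest share among the 8 genes. OPC held 145, 115, 103 and 94.7 CPM and astrocytes 110, 114, 109 and 115 CPM in Saline run A, Saline run B, Insulin run A and Insulin run B, in that order. Their ranges overlapped. The differences from the other types were 2.25 in OPC and 2.24 in astrocytes, and 1.47 in nuclei annotated Micro. Neurons as a whole were lower, at 18.3 ± 2.92 CPM (-0.85), as were oligodendrocytes between 9.90 and 12.02 CPM (-1.52) and nuclei annotated Endothelial at 7.57 ± 2.76 CPM (-2.53). All 6 of these calls also held among nuclei without a neuron marker UMI. There Mgll was at 143 ± 66.4 CPM in OPC, 129 ± 19.0 CPM in Micro and 113 ± 3.21 CPM in astrocytes. The library ranges of these types overlapped, so Micro then stood beside OPC and astrocytes.

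The other 2-AG hydrolases were more widely spread. Abhd12 was highest in nuclei annotated Micro, with 233 and 297 CPM in the Saline libraries and 458 and 330 CPM in the Insulin libraries, all above the highest of any other type. The difference was 1.87, and 2.22 in nuclei without a neuron marker UMI, where the mean was 506 ± 56.1 CPM. OPC (150 ± 16.2 CPM, 0.86) and astrocytes (115 ± 5.53 CPM, 0.42) followed, and nuclei annotated Ependymo were lowest at 48.7 ± 12.7 CPM. Abhd6 varied least between types, from 32.1 ± 4.08 CPM in nuclei annotated Mural Cell to 74.3 ± 17.6 CPM in those annotated Micro. Abhd6 was called higher in neurons (0.65) and Micro (0.58) and lower in oligodendrocytes (-0.44) and Mural Cell nuclei (-0.99). Without nuclei holding a neuron marker UMI, the calls in Micro (adjusted p = 0.148), oligodendrocytes (0.133) and Mural Cell nuclei (0.053) were lost.

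The 2 anandamide genes had different cells at their top. Napepld was at 39.7, 53.4, 62.2 and 44.2 CPM in oligodendrocytes (Saline run A, Saline run B, Insulin run A, Insulin run B), all 4 above the highest neuron library at 32.2 CPM. The difference in oligodendrocytes was 1.47 (SE 0.12), and 1.59 among nuclei without a neuron marker UMI. Astrocytes held 13.4 ± 1.54 CPM and were lower (log2 difference -0.79, and -0.71 among nuclei without a neuron marker UMI). Faah was lowest in astrocytes, with 48 UMIs in 5407 nuclei, or 2.51 ± 0.997 CPM (-2.69, and -1.90 among nuclei without a neuron marker UMI). Neurons held 36.2 ± 3.50 CPM of Faah (1.56) and 92.8% of its UMIs. Nuclei annotated Ependymo held 39.0, 53.6, 81.0 and 44.1 CPM of Faah from only 66 UMIs (1.93), and their range overlapped that of neurons. Without nuclei holding a neuron marker UMI, Ependymo could not be tested, because 1 library kept 9 nuclei. Faah in the Ependymo nuclei that were left was at 8.40, 14.6, 0 and 44.9 CPM in the same library order, from 16 UMIs. Their mean of 17.0 CPM lay below that of neurons. In the comparison without nuclei holding a neuron marker UMI, Faah was 2.45 higher in neurons and had a single UMI in the 192 nuclei annotated Micro.

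**Figure D2:**
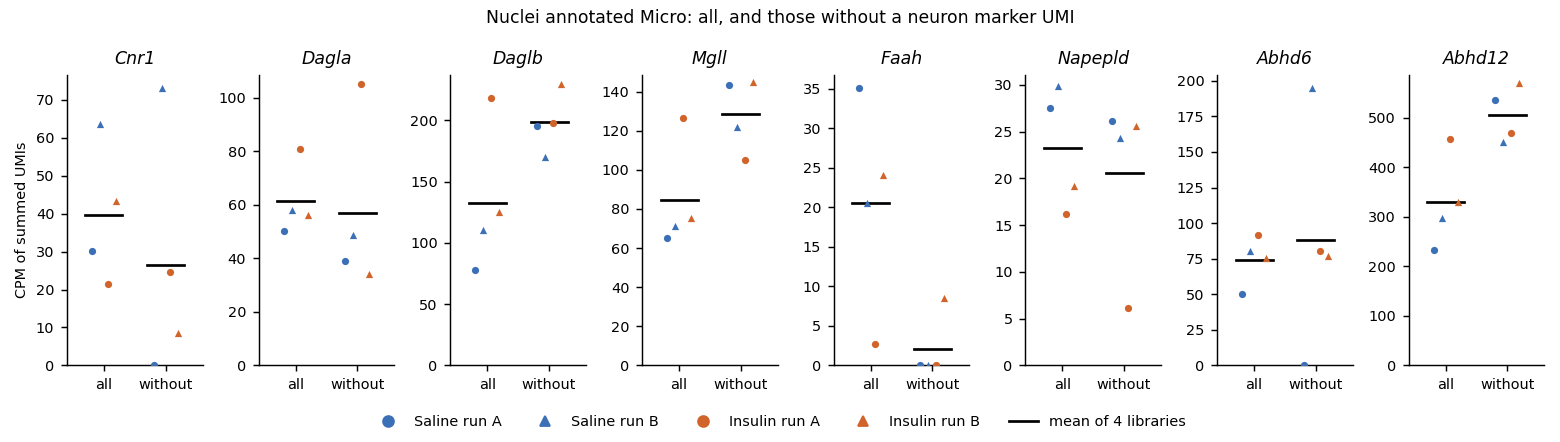
The 8 genes in nuclei annotated Micro, for all nuclei of the class (left in each panel) and for those without a UMI of 4 neuron markers (right). The vertical axes are CPM of summed UMIs, points are libraries and bars their means; Daglb, Mgll and Abhd12 have higher means on the right (198, 129 and 506 CPM), and Faah falls to 2.13 CPM.

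The median log2 difference of the 8 genes was 1.10 in nuclei annotated Micro, against 0.08 over all genes, and 0.49 in neurons, against 0.02. It was -0.66 in Mural Cell, -0.79 in Ependymo and -0.51 in Endothelial nuclei, against -0.13, -0.19 and -0.03 over all genes. Micro had 6 calls higher and 0 lower among the 8 genes, where 23.1% of all genes were higher. In neurons 5 were higher and 2 lower, where 36.7% and 32.7% of all genes were. Mural Cell and Endothelial nuclei each had 4 lower and 0 higher, against 15.6% and 18.8% of all genes lower.

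Among nuclei without a neuron marker UMI, 4 of the 8 genes were called higher in Micro and 0 lower, where 15% of all genes were higher, and the median log2 difference was 1.04, against -0.21 over all genes. The 4 were Dagla, Daglb, Mgll and Abhd12. Mural Cell and Endothelial nuclei then had 2 lower each, where 11% and 12.6% of all genes were. Of the 35 calls that could be compared, 25 were called in the same direction, 8 lost the call and 2 changed sign. The 10 that were lost or changed sign were Cnr1 in astrocytes, OPC, Micro and Endothelial nuclei, Daglb in astrocytes, Faah in Endothelial and Mural Cell nuclei, and Abhd6 in oligodendrocytes, Micro and Mural Cell nuclei. Faah in OPC (1.61) and oligodendrocytes (1.45) and Abhd6 in astrocytes (0.41) were called higher only among these nuclei. This fit held 7 types, without Ependymo, so the mean that each type was set against changed as well. From all nuclei to those without a neuron marker UMI, mean Faah went from 17.7 to 21.4 CPM in OPC. In oligodendrocytes it went from 17.0 to 18.5 CPM. A call gained, lost or reversed is thus not a measure of that type alone, and the change between the fits was not tested.

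A list of 30 further genes of endocannabinoid signalling, synthesis and breakdown was examined beside these. Of them 22 were abundant enough to test between types, giving 97 calls in 176 tests, 54 higher and 43 lower. The share called over all genes and types is given above with the first comparison, and the list was not tested against it. Neurons were higher for Chrm3 and Grm5 (4.03 and 2.82), the phospholipase-coupled receptors whose activation can start 2-AG release. They were higher too for Pla2g4e, an N-acyltransferase that makes the anandamide precursor (3.27). None of these was called higher in neurons alone. Chrm3, Grm5 and Pla2g4e were called higher in OPC (1.78, 2.75 and 1.42) and in nuclei annotated Micro as well. In that order of genes, means were 299, 1525 and 37.3 CPM in neurons, 75.2, 1370 and 10.7 CPM in OPC, and 115, 760 and 16.1 CPM in Micro. OPC and Micro were also the glial types with the most neuron marker UMIs. The part of neuronal material in these levels was not tested. The CB1-binding proteins Sgip1 (1.49) and Cnrip1 (0.93) were also higher in neurons, and both were higher in OPC (1.42 and 1.09). Astrocytes were higher for Plcb1, a phospholipase C that makes diacylglycerol (2.94, at 3299 ± 650 CPM), and for the fatty acid binding proteins Fabp7 and Fabp5 (1.64 and 0.86). Cnr2, the CB2 receptor of immune cells, had 89 UMIs in all nuclei, of which 43 lay in nuclei annotated Micro. There it was at 15.02 and 14.95 CPM in the Saline and 32.3 and 27.2 CPM in the Insulin libraries, while neurons held 34 UMIs at a mean of 0.152 CPM. Alox5, the arachidonate 5-lipoxygenase, was 4.13 higher in nuclei annotated Micro. Naaa, an acid amidase that breaks down N-acylethanolamines, was 2.40 higher in nuclei annotated Ependymo, at 61.2 ± 19.2 CPM. These values are for all nuclei of each type. Among nuclei without a neuron marker UMI, 19 genes of the list were tested, of which 3 were higher and 7 lower in Micro, beside 7 higher and 4 lower of 22 in all nuclei of the class. In OPC 8 were higher and 0 lower, beside 11 and 3. The shares of all genes called are not set beside these counts, which are therefore not read as a result about the list.

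The second comparison asked how the genes differ between the 37 neuron populations annotated by the authors. The receptor and both anandamide genes were highest in the same population, M8.Nr5a1, and Mgll varied most of all. The 35 populations with at least 10 nuclei in every library were each tested against the mean of the other 34, over 13858 genes. M2.Hdc and M13.Irx5 were left out. Of 280 tests of the 8 genes, 105 were called, 58 higher and 47 lower. Over all genes and populations 21.2% of tests were called, 13% higher and 8.16% lower. The calls were shared unevenly: Cnr1 had 22, Mgll 20, Napepld and Abhd6 17 each, Faah 9, Daglb 8, Abhd12 7 and Dagla 5. Along each gene's order of 37 populations, no pair of neighbours had library ranges that did not overlap.

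**Figure D3:**
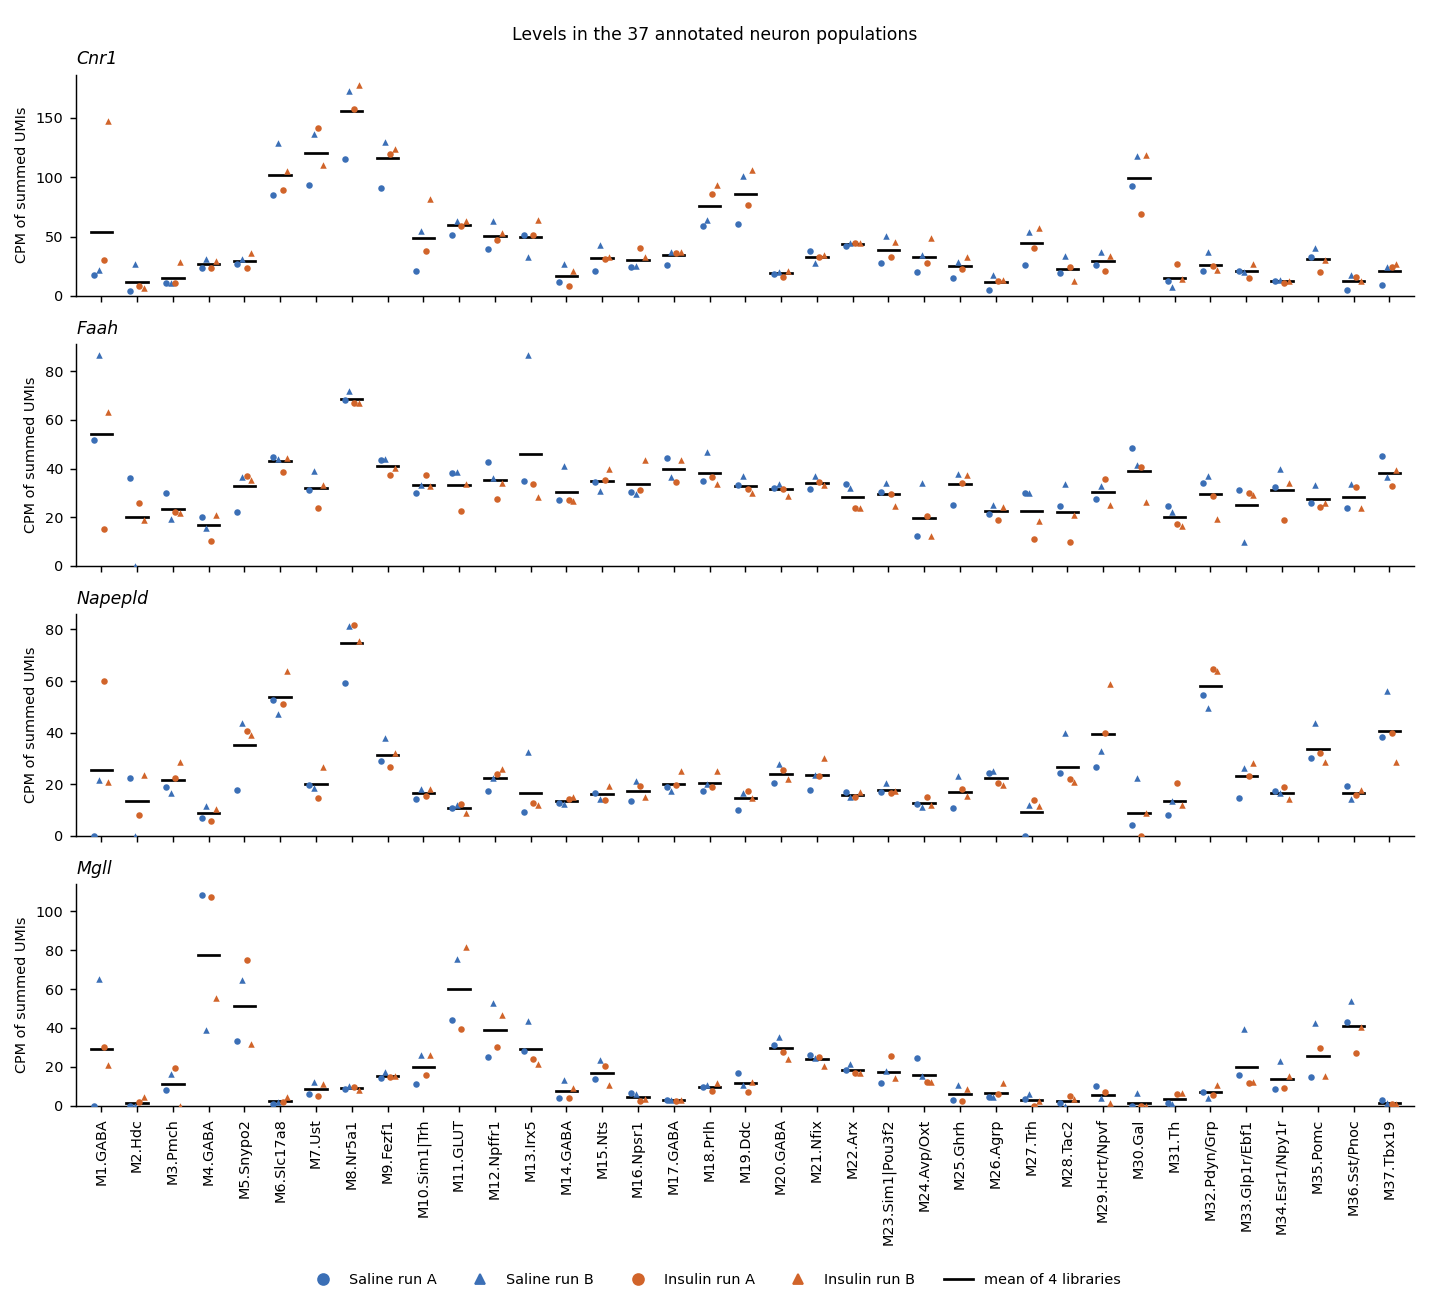
Cnr1, Faah, Napepld and Mgll in the 37 annotated neuron populations. The vertical axes are CPM of summed UMIs, each point is 1 library and each bar the mean of 4; M8.Nr5a1 has the highest mean of Cnr1 (156 CPM), Faah (68.5 CPM) and Napepld (74.6 CPM) and 9.13 CPM of Mgll.

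M8.Nr5a1, named for the steroidogenic factor gene that marks the ventromedial hypothalamus, held 1954 nuclei. Its Cnr1 level was 115 and 172 CPM in the Saline libraries of run A and run B and 157 and 178 CPM in the Insulin libraries. This was 2.32 log2 units above the other populations (SE 0.07, adjusted p = 3.21e-64 by edgeR). Thinned to 1000 UMIs, 14.1% of its nuclei held a Cnr1 UMI, against 1.12% of M26.Agrp nuclei. Unthinned, the shares were 74.4% and 8.75%, at median depths of 10757.5 and 8538 UMIs. Cnr1 was next highest in M7.Ust (120 ± 22.8 CPM), M9.Fezf1 (116 ± 17.2), M6.Slc17a8 (102 ± 19.5), M30.Gal (99.6 ± 23.8) and M19.Ddc (86.0 ± 21.5), all called higher by 1.34 to 1.91. The highest M8.Nr5a1 library, at 178 CPM, lay above every library of these 5 populations, while its lowest lay within the ranges of all but M19.Ddc.

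At the other end, Cnr1 was lowest among tested populations in M26.Agrp, the Agrp and Npy neurons that promote feeding. It was at 5.09 and 17.5 CPM in the Saline libraries and 12.8 and 13.2 CPM in the Insulin libraries, from 62 UMIs in 610 nuclei (log2 difference -1.75, SE 0.19). M34.Esr1/Npy1r (12.6 ± 1.06 CPM, -1.63), M36.Sst/Pnoc (12.8 ± 5.43 CPM, -1.56), M31.Th (15.2 ± 8.07 CPM, -1.31) and M3.Pmch (15.5 ± 8.83 CPM, -1.17) were also lower. M35.Pomc, the Pomc neurons that restrain feeding, held 32.6 and 40.3 CPM in the Saline and 20.5 and 30.1 CPM in the Insulin libraries. Every one of these lay above every M26.Agrp library. M35.Pomc did not differ from the mean of the other populations (-0.25 ± 0.17, adjusted p = 0.329), and the 2 populations were not tested against each other.

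Mean Cnr1 levels had a median of 41.8 CPM over 20 populations with more vesicular glutamate than GABA transporter UMIs, and of 25.0 CPM over the other 15. Their ranges overlapped widely, from 12.6 to 156 CPM and from 12.1 to 99.6 CPM. The GABA class with the highest Cnr1 was M30.Gal. Across the 35 tested populations, log2 levels of Cnr1 and the glutamate transporter Slc17a6 had a Pearson correlation of 0.46, and those of Cnr1 and Gad1 one of -0.47. These correlations are descriptions: the populations share 4 libraries and differ in depth.

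Faah was more even between populations than Cnr1, but M8.Nr5a1 again stood out, at 68.1 and 72.1 CPM in the Saline and 66.9 and 66.9 CPM in the Insulin libraries (log2 difference 1.29, SE 0.06). The median over populations was 31.8 CPM. Faah was also higher in M9.Fezf1 (0.50), M6.Slc17a8 (0.48) and M17.GABA (0.33), and lower in 5 populations, among them M26.Agrp (22.4 ± 2.87 CPM, -0.57). Cnr1 and Faah levels had a correlation of 0.60 across the 35 populations, the strongest of any pair that includes Cnr1.

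Napepld was at 59.4 and 81.5 CPM in M8.Nr5a1 of the Saline libraries and at 81.7 and 75.6 CPM in that of the Insulin libraries (log2 difference 2.01, SE 0.06). M32.Pdyn/Grp (58.1 ± 7.34 CPM, 1.45) and M6.Slc17a8 (53.7 ± 7.20 CPM, 1.38) followed. M35.Pomc was higher too (33.7 ± 6.77 CPM, 0.66). The lowest were M4.GABA (8.69 ± 2.83 CPM, -1.20), M30.Gal (8.88 ± 9.65 CPM, -1.37) and M27.Trh (9.39 ± 6.35 CPM, -1.03), the last 2 from 11 and 18 UMIs. M30.Gal thus combined a high level of the receptor with a low one of Napepld.

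Mgll spanned the widest range, from a mean of 77.5 CPM to one of 1.59 CPM, with a median of 11.7 CPM. In M4.GABA it was at 108 and 39.2 CPM in the Saline and 107 and 55.4 CPM in the Insulin libraries, with both libraries of run A above both of run B (log2 difference 3.13, SE 0.21). M11.GLUT (60.2 ± 21.5 CPM, 2.58), M5.Snypo2 (51.3 ± 21.9 CPM, 2.46), M36.Sst/Pnoc (41.1 ± 11.1 CPM, 1.90) and M12.Npffr1 (38.8 ± 13.2 CPM, 1.84) were also higher. M35.Pomc was higher by 1.21, with 14.6, 42.3, 29.5 and 15.1 CPM in Saline run A, Saline run B, Insulin run A and Insulin run B. The 8 lower calls rested on few molecules: 2 UMIs in M30.Gal (-2.92), 6 in M37.Tbx19 (-2.82) and 10 in M6.Slc17a8 (-2.37). M17.GABA was low in all 4 libraries, at 2.97, 2.77, 2.55 and 2.98 CPM (-2.02). Populations high in Cnr1 were found on both sides: M6.Slc17a8 and M30.Gal were low in Mgll, M9.Fezf1 was modestly higher (0.56), and the correlation of the 2 genes across populations was -0.07.

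The remaining 4 genes varied less. Dagla was higher in M5.Snypo2, at 67.0, 72.5, 75.2 and 72.0 CPM (0.98), and slightly so in M8.Nr5a1 (0.17). It was lower in M28.Tac2, the tachykinin neurons (24.5 ± 5.88 CPM, -0.87), M25.Ghrh (-0.51) and M26.Agrp (-0.36). Daglb differences stayed between -0.65 in M7.Ust and 0.42 in M29.Hcrt/Npvf among the 8 called. Abhd6 was highest in M32.Pdyn/Grp (110 ± 13.6 CPM, 0.62) and M37.Tbx19 (99.2 ± 8.30 CPM, 0.44) and lowest in M3.Pmch (42.1 ± 15.6 CPM, -0.63). Abhd12 was the most even, with means from 56.2 to 101 CPM. The range of the population with the highest mean, M27.Trh, overlapped those of all 36 others.

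**Figure D4:**
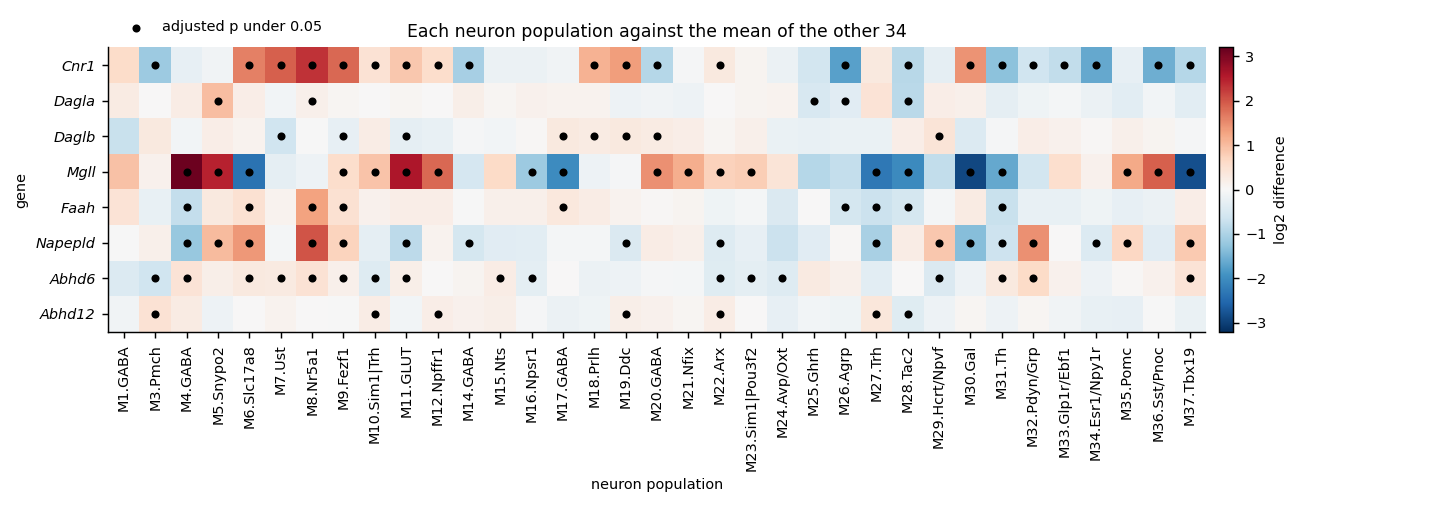
Log2 difference of each of 35 neuron populations (columns) from the mean of the other 34, for the 8 genes (rows). Red is higher and blue lower, and black points mark an adjusted p under 0.05; M8.Nr5a1 and M9.Fezf1 each have 5 genes called higher, and M28.Tac2 has 5 called lower.

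Read by population, M8.Nr5a1 had 5 of 8 genes called higher and 0 lower, where 26.8% of all genes were called higher. M9.Fezf1 had 5 higher and 1 lower, where 20% and 10.2% of all genes were. M6.Slc17a8 had 4 higher and 1 lower, where 12.5% and 6.29% were. M28.Tac2 had 5 lower and 0 higher, where 8.94% of all genes were lower: Mgll (-2.04), Cnr1 (-0.88), Dagla (-0.87), Faah (-0.57) and Abhd12 (-0.39). M31.Th had 4 lower (Mgll, Cnr1, Faah and Napepld) and 1 higher (Abhd6), where 10.4% and 13.5% were. M26.Agrp had 3 lower and 0 higher, where 16.5% of all genes were lower.

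The further pathway genes were described for a few of these populations. Of 18 tested, 8 were higher and 3 lower in M8.Nr5a1. The higher ones included Plcb4 (1.51) and Grm5 (1.36), which act upstream of 2-AG, and Abhd4 (0.72), which makes glycerophospho-N-acylethanolamines. Pla2g4e was lower there (-1.32). In M26.Agrp 2 were higher and 8 lower, among them Plcb1 (-2.05) and Grm5 (-1.93), while the muscarinic receptor gene Chrm3 was higher (1.00). M4.GABA, the population with the most Mgll, was higher for Chrm1 (3.71) and Plcb1 (1.37). The shares of all genes called higher in M8.Nr5a1 and lower in M26.Agrp are given above with the 8 genes. The counts of further pathway genes were not tested against them and are not read as a result about the list.

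By likeness of pattern over the 35 populations, out of 10250 genes with a mean of at least 10 CPM, the genes nearest to Cnr1 were Camkk2 (Pearson correlation of log2 levels 0.73), Nr2f2 (0.70) and Kcna2 (0.67). Those nearest to Faah were Tmem145 (0.76), Ltbp3 (0.76) and Zcchc18 (0.74). Abhd6 was nearest to Cacng8 (0.77), Sfpq (0.74) and Gm44151 (0.73). Mgll was nearest to Rnf152 (0.67), Slc35f1 (0.62) and Rnf207 (0.61). For Napepld these were Fhod3 (0.70), Dnah7b (0.68) and Nek3 (0.67). For Daglb they were Klc1 (0.70), Rala (0.70) and Taf12 (0.68). For Dagla they were Rasal2 (0.63), Gm26724 (0.62) and Rpa1 (0.60), and for Abhd12 Lypd1 (0.61), Arf4os (0.58) and Pla2g7 (0.58). Ranked by Spearman's coefficient instead, 8 of these 24 genes stayed among the nearest 3.

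The third comparison, the one the study was set up for, was Insulin against Saline. None of the 8 genes was called in all nuclei, in any cell type or in any neuron population, and most differences were small beside the spread between the 2 libraries of a group. In all nuclei 0 of 8 genes were called, where 0% of 21190 genes were, and 0 of the 8 had an unadjusted p under 0.05 (edgeR). In cell types 0 of 50 tests were called, with 1 at an unadjusted p under 0.05, where 0% of all tests were called. In populations 0 of 248 were called, with 3 at an unadjusted p under 0.05, where 0.000835% of all tests were called. DESeq2 called 0 in all 3 settings, with 0 at an unadjusted p under 0.05.

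A fit with the sequencing run as a block is given beside this, because libraries of the same run deviated together. It called 0 of 8, 0 of 50 and 0 of 248, where it called 0%, 0.0735% and 0.13% of all genes' tests. It gave 0, 3 and 13 tests of the 8 genes an unadjusted p under 0.05. With 2 libraries a group and runs that differ, a count of 0 does not show that the genes did not differ, least of all without the block.

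**Figure D5:**
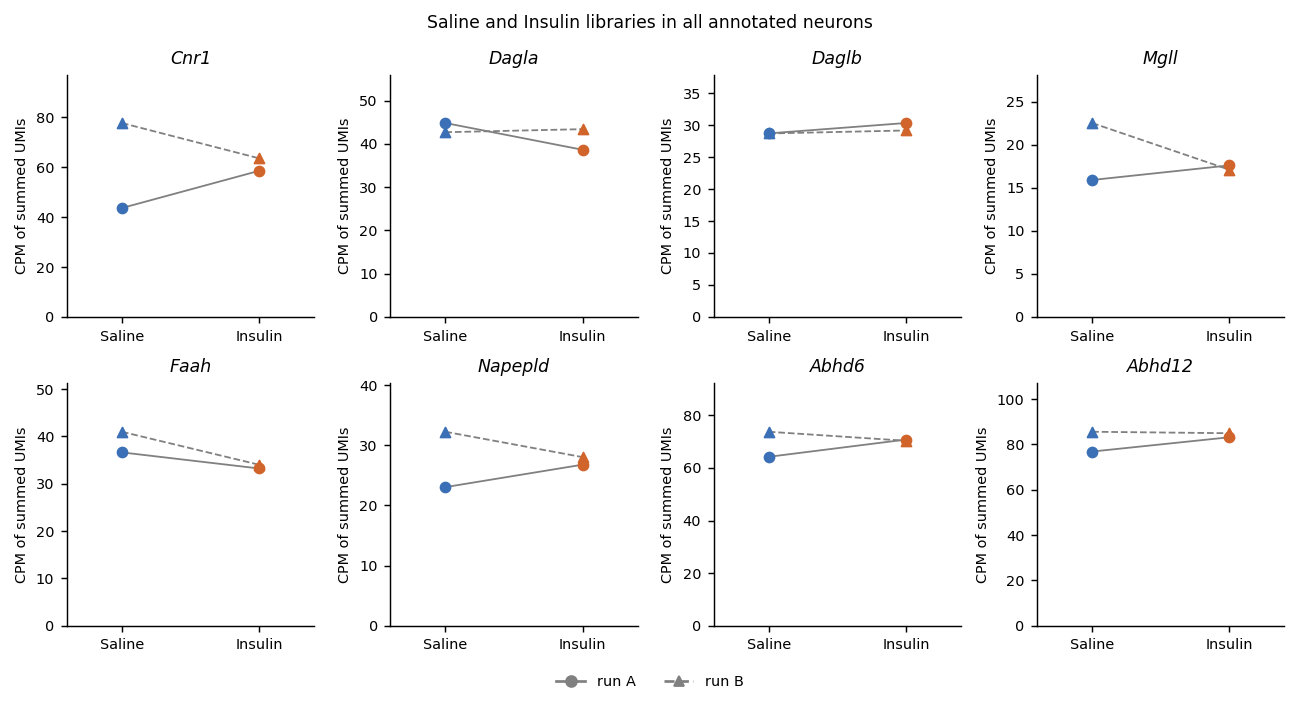
The 8 genes in all annotated neurons of the Saline and Insulin libraries. The vertical axes are CPM of summed UMIs from 0, as measured, and lines join the libraries of a run. The Cnr1 lines approach each other (43.7 to 58.6 CPM in run A, 77.7 to 63.6 CPM in run B) and Faah is lower in both Insulin libraries.

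As measured, Cnr1 in neurons moved in opposite directions in the 2 runs. From Saline to Insulin it went from 43.7 to 58.6 CPM in run A and from 77.7 to 63.6 CPM in run B (log2 difference 0.01 ± 0.26, adjusted p = 1.00 by edgeR). The share of M8.Nr5a1 among neurons was 7.13%, 11.6%, 8.03% and 7.25% in Saline run A, Saline run B, Insulin run A and Insulin run B, and was highest in the library with the most Cnr1. With the makeup of the populations held fixed, Cnr1 was at 47.3, 68.1, 60.4 and 68.3 CPM in the same order, and the Saline library of run A remained the lowest. Within M8.Nr5a1 the difference was 0.21 ± 0.18.

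The runs differed more than the treatments did for this gene. In 20 of the 35 tested populations both run B libraries had more Cnr1 than both run A libraries, and in 0 they had less. Over all genes of at least 1 CPM, 25.1% of population levels were separated upward in this way and 17.1% downward. Of the other 7 genes, none was separated upward in more than 9 populations. In all nuclei Cnr1, Mgll, Napepld and Abhd12 were higher in both libraries of run B, where 40% of genes were, and in neurons Cnr1, Napepld and Abhd12 were, where 40.2% of genes were.

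Faah was the gene whose lower values under Insulin recurred most. In all nuclei it was at 33.2 and 35.9 CPM in the Saline and 29.7 and 29.8 CPM in the Insulin libraries (log2 difference -0.22 ± 0.11, adjusted p = 1.00 by edgeR, and 0.794 with the run as a block). Both Insulin libraries were below both Saline libraries, where 10.2% of genes were. In neurons the values were 36.63 and 40.99 CPM against 33.22 and 34.01 CPM (-0.21 ± 0.11), where 11.6% of genes were so separated. The 2 groups were also separated with the makeup of the populations held fixed, at 37.2 and 39.3 CPM against 33.6 and 35.1 CPM. Both Insulin libraries were lower in 13 of 32 tested populations and both higher in 2, where 13.8% and 14.2% of all genes' population tests were. The populations come from the same 4 libraries, so these counts are not independent of each other. The lowest adjusted p for Faah in a population was 0.897.

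Daglb was separated upward in all nuclei, where 8.44% of genes were, at 27.8 and 29.0 CPM in Saline and 31.0 and 29.3 CPM in Insulin libraries (0.08 ± 0.12). In neurons, where 8.74% of genes were separated upward, it was at 28.7 and 28.7 CPM against 30.3 and 29.2 CPM. With the makeup fixed the groups overlapped. In nuclei annotated Micro, Daglb (77.6 and 110 CPM against 218 and 125 CPM), Mgll (65.1 and 71.0 against 127 and 75.3) and Abhd12 (233 and 297 against 458 and 330) were all separated upward, where 22.4% of genes were. The 4 neuron markers summed to 1796 and 1797 CPM in the Saline libraries of this class and to 525 to 1559 CPM in the Insulin libraries. The 4 microglia markers summed to 1106 to 1357 CPM in Saline and to 1458 to 2465 CPM in Insulin libraries. Among nuclei of this class without a neuron marker UMI, the log2 difference was 0.23 for Daglb, -0.08 for Mgll and 0.09 for Abhd12, beside 0.76, 0.46 and 0.48 in all nuclei of the class. None of these 6 differences was called.

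Mgll in OPC was at 145 and 115 CPM in the Saline and 103 and 94.7 CPM in the Insulin libraries, separated downward where 12.3% of genes were (-0.39, adjusted p = 1.00 by edgeR). Among OPC without a neuron marker UMI, Mgll was at 189 and 212 CPM in the Saline and 83.3 and 89.9 CPM in the Insulin libraries, from 83 UMIs (-1.19 ± 0.37, unadjusted p = 0.00678, adjusted p = 0.998 by edgeR). The largest Insulin difference among the tests in cell types was Abhd6 in nuclei annotated Ependymo, with 73.1 and 76.2 CPM in Saline and 23.1 and 30.4 CPM in Insulin libraries (-1.37, unadjusted p = 0.0102, adjusted p = 1.00 by edgeR), from 66 UMIs in all. Both Insulin libraries lay below both Saline libraries, where 16% of genes did. The Insulin library of run A had 16 nuclei of this class, with 2 Abhd6 UMIs. Among populations, Cnr1 in M18.Prlh had the lowest unadjusted p, 0.0138. It was at 58.9 and 63.6 CPM in the Saline and 85.7 and 93.8 CPM in the Insulin libraries (0.54 ± 0.17, adjusted p = 0.999, and 0.301 with the run as a block), separated upward where 15.2% of genes were. In M10.Sim1|Trh Cnr1 was at 21.4 and 54.4 CPM against 38.2 and 81.9 CPM, higher under Insulin in both runs (0.56 ± 0.41, adjusted p = 1.00 by edgeR). With the run as a block the difference was 0.66 ± 0.20 (adjusted p = 0.534 by edgeR). Without the Saline library of run B it was 1.35, but then the Saline library of run A alone was set against Insulin libraries of both runs. In this population both run B libraries lay above both run A libraries, so that value cannot be told apart from run and sex.

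In M26.Agrp and M35.Pomc, the feeding populations of the arcuate nucleus, no gene was called. Cnr1 differed by 0.34 ± 0.55 in M26.Agrp. In M35.Pomc both Insulin libraries, at 20.5 and 30.1 CPM, lay below both Saline libraries, at 32.6 and 40.3 CPM, where 13.1% of genes did (-0.55 ± 0.34, adjusted p = 1.00 by edgeR). Of the 30 further pathway genes, 29 were tested in all nuclei and 0 were called, as were 0 of 122 tests in cell types and 0 of 531 in populations. The median Insulin difference of the 8 genes was -0.01 in all nuclei, beside 0.01 over all genes, and 0.00 in neurons, beside 0.00.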

How the data were processed

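Counts were deposited by the authors as one matrix of unnormalized UMI counts per gene and nucleus for all 4 libraries, with 41156 barcodes of at least 500 UMIs and 31053 gene symbols, together with a table that gives library, run, treatment, cell type and neuron population. Per the submitters' processing notes, Cell Ranger and the GRCm38 build were used; the annotation and the cell filter are not given in the sources used here. Of 36534 nuclei in the deposited table, 11 had no barcode in the matrix and were left out, as were 4633 barcodes without annotation. The authors' annotation was used as deposited. It names 423 nuclei Doublets and 1116 Unassigned, and neither entered a test between types; no doublet caller was run. The treatment of a library comes from that table, because library names could not be matched to the replicate numbers of the labels.

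Counts were summed per library within all annotated nuclei, each cell type and each neuron population. Insulin was compared with Saline, and each type or population with the mean of the others (library as a block), by edgeR 4.0.16 quasi-likelihood tests in R 4.3.3, with TMM scaling, filterByExpr (minimum count 10, minimum total 15) and Benjamini-Hochberg adjustment over all genes tested. Units with fewer than 10 nuclei in a library were left out. Alternatives were DESeq2 1.42.0, limma 3.58.1 (voom), RLE scaling, no filter, each library left out, Saline libraries alone, no block, a minimum of 20 nuclei and the run as a block. Nuclei without neuron marker UMIs and a fixed makeup of neurons were alternatives added after seeing the data. Deviations from the group means were shared within a run (correlation 0.712 across 16690 genes in all nuclei, which are not independent replicates), so the block pairs libraries by the run of the deposited table. The tests were tested on simulated data. Genome positions come from a GENCODE annotation of GRCm38. The 8 genes, the 30 further pathway genes and the markers were chosen with earlier results of these data known. Genes named were all 8 members, pathway genes that passed the test in a comparison described, and, for each member, the 3 genes of at least 10 CPM with the highest Pearson correlation of log2(CPM + 1) over the tested populations. Not every pathway gene that this rule names is reported here.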

Additional observations from a re-analysis of the deposited data

How the results depend on the processing

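No treatment call depended on scaling, filter, DESeq2 or, where run, limma-voom: each gave 0 calls among the 8 genes in all nuclei, cell types and populations. With the run as the replicate block, pairing 1 Saline and 1 Insulin library each, the count was also 0 in all 3. Leaving out one library at a time gave 0 to 1 calls in populations. Between types the count of calls went from 40 to between 31 and 45 without one library, and to 28 without nuclei holding a neuron marker UMI. Between populations it went from 105 to between 82 and 91 without one library, and to 64 in the Saline libraries alone, which are fewer samples. With a lone library in a group, that library is assumed to vary like the others. Depth limits genes with few UMIs, such as Mgll in the populations where it was lowest.

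Some uncalled Insulin differences (log2) changed sign. With the run as a block, Cnr1 in all nuclei became 0.029 and Napepld in neurons 0.0013; with limma-voom they became 0.026 and 0.0030. Napepld in all nuclei became -0.012 with RLE scaling and with DESeq2. Without one library at a time, values in all nuclei ran from -0.0085 to 0.110 for Abhd12, -0.022 to 0.094 for Abhd6, -0.35 to 0.42 for Cnr1, -0.33 to 0.13 for Mgll and -0.17 to 0.20 for Napepld. In neurons they ran from -0.030 to 0.10 for Abhd6, -0.31 to 0.45 for Cnr1, -0.0078 to 0.10 for Daglb, -0.34 to 0.091 for Mgll and -0.20 to 0.21 for Napepld. Among contrasts, Faah in Endothelial nuclei became 0.27 and Cnr1 in Micro -0.18 without nuclei holding a neuron marker UMI, and Abhd12 in M27.Trh became -0.21 in the Saline libraries alone. The cause was not tested for any of these.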

Other observations

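The 1116 nuclei that the authors left Unassigned, with a median of 827.5 UMIs, counted among all nuclei but entered no comparison between types. Their Cnr1 level was 3.15 CPM in Saline run A, 131 CPM in Saline run B, 3.15 CPM in Insulin run A and 84.0 CPM in Insulin run B. These values rest on 1, 55, 1 and 21 UMIs. Abhd12 was at 47.3, 164, 53.5 and 208 CPM in the same order. Both genes were thus higher in both libraries of run B than in either of run A. In the 423 nuclei annotated Doublets, Cnr1 was at 29.6, 78.9, 45.1 and 49.3 CPM, again with both run B libraries above both of run A.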
